A study of Mus musculus with 12 samples.

Results

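The 86 genes described here are those whose symbol in the array's probe annotation starts with Kcn, the root given to potassium channels, among 19057 genes that the annotation names. Kcnq1, Kcne1 and Kcnj10 were left out. They are read by 167 of 45281 probes, and the probe of highest mean level stands for each gene, which matters for 49 genes with several probes (up to 6). The set holds pore-forming subunits, auxiliary subunits and 3 members that are not channel subunits. These are Kcnq1ot1, a long non-coding RNA, Kcnmb4os1, an opposite-strand transcript, and Kcnrg, a regulator of voltage-gated channel assembly.

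RNA came from cochleae, the coiled hearing organ, of C57BL6j mice at 4, 15 and 45 weeks of age, after removal of the vestibular organs. This inbred strain is known for hearing loss that begins early in adult life, and all groups share that background. Each age had 2 pools, named a and b, of 5 per the series' text (cochleae or mice is not said), and each pool was run on 2 Illumina bead arrays. The pool is the replicate (n = 2 per age), so p-values measure the spread between pools. Levels are log2 values that the authors had normalized, with a median of 5.89 on every one of the 12 arrays and a range of 5.1 to 15. One unit is a doubling of signal, and a difference of low probes is compressed by background.

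Potassium channels let potassium leave or enter cells and set the resting voltage and the shape of electrical signals. Voltage-gated (Kv) channels open when the membrane depolarises, calcium-gated BK and SK channels answer calcium, inward rectifiers and two-pore channels hold the resting voltage, and beta, KCNE and KChIP subunits tune the pores. In the cochlea, potassium carries the transduction current of hair cells, is cleared through supporting cells and fibrocytes, and is secreted back into endolymph by the stria vascularis. Spiral ganglion neurons use Kv channels to fire briefly and in time with sound.

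Most markers of the labelled tissue read above the all-probe median, with gaps, and markers of neighbouring tissue varied. All 11 fibrocyte markers, 7 of 9 strial markers and 11 of 14 hair cell markers found lay above the median of all probe means, 5.87. By the same rule 66.1% of all named genes lay above it, so these counts alone do not establish the tissue. Pvalb, counted among the hair cell markers, is also in the muscle list below. The hair cell genes Pou4f3, Slc26a5 and Atoh1 did not, with pool values between 5.37 and 5.87. The mean of a 17-gene skeletal muscle list ran from 8.79 in pool 15a to 10.64 in pool 45b. A pituitary hormone list stood at 7.78 (45a) and 8.09 (45b), against 5.60 to 5.90 in the younger pools, with Prl, the prolactin gene, at 10.47 and 14.00 at 45 weeks. An airway epithelium list (7 of 8 genes above the median) stood at 8.0 and 8.53 at 4 weeks, 7.65 and 7.53 at 15 weeks, and 7.8 and 7.9 at 45 weeks. Xist, transcribed from the inactive X of females, lay at 8.56 and 7.60 in pools 4b and 45b and at 5.85 to 5.95 in the other 4. Eif2s3y, a gene of the Y chromosome, lay at 5.53 and 5.65 in pools 4b and 45b and at 9.54 to 9.81 in the other 4. Pools 4b and 45b thus read as female and the other 4 as male. Neither 15-week pool read as female, so sex differed between 15 weeks and both other ages. Arrays of 1 pool correlated across probes with a median r of 0.989, arrays of different pools of an age with 0.978 and arrays of different ages with 0.977, where probes are not independent replicates.

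Of the 86 genes, 49 (57.0%) had a brightest probe above the all-probe median, against 66.1% of all named genes. Above the 75th percentile, 7.12, were 13 (15.1%), against 40.2% of all named genes. The genes nearest the threshold were Kcnt2 (5.92), Kcnk18 (5.91) and Kcnj2 (5.88) just inside, and Kcnj11, Kcnk10 and Kcnk15 (5.86, 5.86 and 5.85) just outside. The threshold is a rank among probes and not a test of detection, and the levels of different probes do not compare RNA amounts, because probes differ in how they bind.

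**Figure D1:**
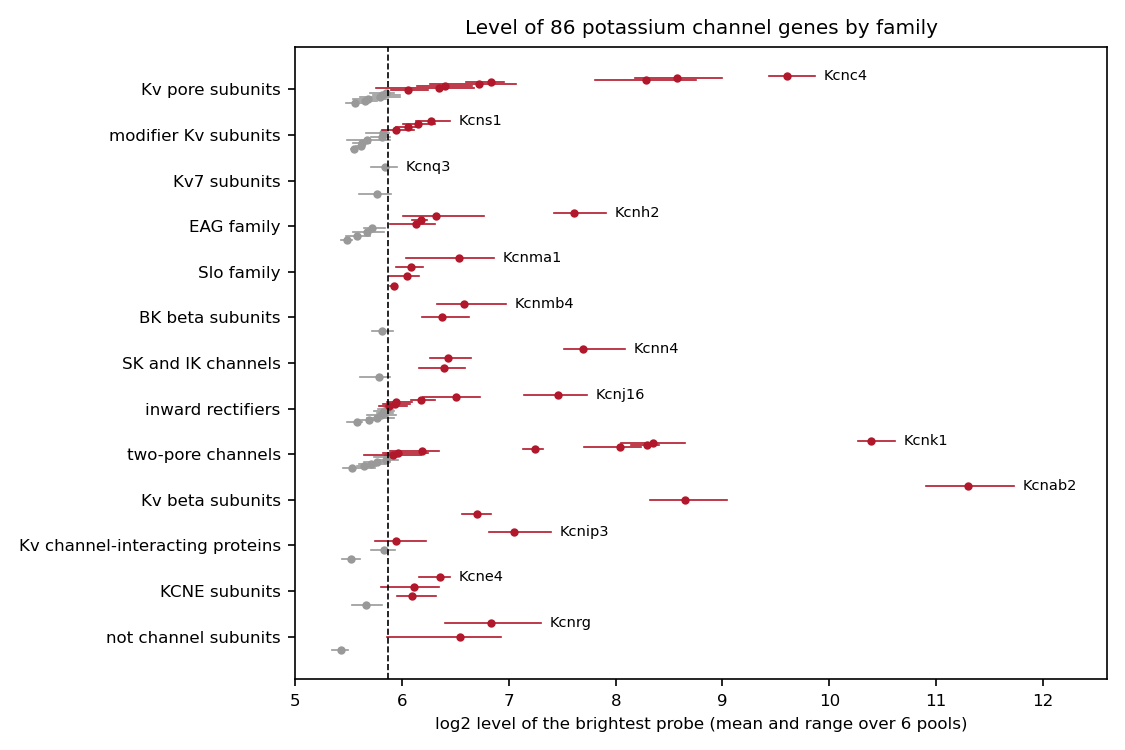
Log2 level of the brightest probe of each of the 86 genes, by family, as the mean (point) and range (line) over 6 pools, with the gene of highest level named in each family. Red marks the 49 genes above the dashed all-probe median of 5.87 and grey the others. Most families straddle the line, while all 4 Slo and all 3 Kv beta genes lie above it and both Kv7 genes below.

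The auxiliary Kv beta subunits, cytoplasmic partners of Kv1 pores, were above the median in 3 of 3 cases. Kcnab2 had the highest probe level of all members, 11.30, and Kcnab1 stood at 8.65. Among 14 pore-forming Kv genes, 8 were above. They were led by Kcnc4 (Kv3.4, 9.60), Kcna6 (Kv1.6, 8.58) and Kcnc1 (Kv3.1, a channel of fast-firing neurons, 8.28), followed by Kcna10, a hair cell channel, at 6.84. The axonal pair Kcna2 and Kcna1 (Kv1.2 and Kv1.1) stood at 6.72 and 6.35. Of the modifier Kv subunits, which pass current only with a partner pore, 4 of 10 were above and none beyond 6.27.

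Two-pore channels supplied 5 of the 13 genes above the 75th percentile. Kcnk1 (TWIK-1) stood at 10.39, Kcnk6 (TWIK-2) at 8.35, Kcnk5 (TASK-2, found in outer sulcus cells and needed for hearing in mice) at 8.30, and Kcnk2 (TREK-1, opened by stretch) at 8.04. The fifth was Kcnk13 (THIK-1) at 7.25, and 8 of the 14 two-pore genes were above the median in all. Of 13 inward rectifiers 6 were above, led by Kcnj16 (Kir5.1, a fibrocyte subunit) at 7.46, with Kcnj8 (Kir6.1 of vascular mural cells) at 6.51.

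Calcium-gated channels were mostly above the median. Kcnn4, the intermediate-conductance channel of red and immune cells, stood at 7.70, and Kcnn1 and Kcnn2 at 6.43 and 6.40, where Kcnn2 (SK2) acts at efferent synapses on hair cells. Kcnma1, the BK pore that carries the fast potassium current of inner hair cells, lay at 6.53 and its beta subunits Kcnmb4 and Kcnmb1 at 6.58 and 6.38. Kcnh2 (hERG) led its family at 7.61, with 4 of 8 genes above. Kcnip3 led the KChIP genes (2 of 4 above) at 7.05, and Kcne4 the KCNE genes (3 of 4 above) at 6.36.

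Of 32 members listed for their known place in the cochlea or its neurons, 28 were analysed here, and 24 of these were above the median. The 4 below it were Kcnq3 (5.84), Kcnq5 (5.77), Kcne3 (5.66) and Kcnd3 (5.56). The 37 genes not above the median ran down to 5.43 (Kcnmb4os1) and were not tested for change with age.

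Promoter composition was set beside the level of the members and of other genes. RefSeq windows on the mouse build GRCm38.p6, from 250 bases before to 50 after each start, were matched by gene number for 67 members. The median number of CG pairs per 300 bases (the mean over a gene's starts) was 12 in 39 members above the all-probe median and 10.5 in 28 members not above it. In other named genes it was 19.0 in 10055 above and 5.0 in 5085 not above. The letters GGGCGG (a GC box, on either strand) were in 64.1% and 60.7% of these members, in 64.7% and 29.9% of the other genes, and in 38.2% of all 27025 genes of the table. The letters TATAAA (either strand) were in 7.7% and 3.6% of these members (3 and 1), in 10.3% and 21.4% of the other genes, and in 15.7% of all genes. These are descriptions with no test, and genes are not replicates.

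The windows of Kcnc1, Kcnd2 and Kcna10 are shown as the 250 bases before the start, 5′ to 3′, with CG pairs in capitals, to set a pair of Kv genes whose brightest probe, and not the second one, read lower at 45 weeks against a hair cell channel with no CG pair. Kcnc1 (chr7:46396218-46396467, plus strand) has 30 CG pairs and 3 GC boxes, Kcnd2 (chr6:21215096-21215345, plus strand) 22 CG pairs and 1 GC box, and Kcna10 (chr3:107182893-107183142, plus strand) 0 of each. A window of 300 bases without a CG pair at any start was held by 5.40% of genes in the table.
Kcnc1: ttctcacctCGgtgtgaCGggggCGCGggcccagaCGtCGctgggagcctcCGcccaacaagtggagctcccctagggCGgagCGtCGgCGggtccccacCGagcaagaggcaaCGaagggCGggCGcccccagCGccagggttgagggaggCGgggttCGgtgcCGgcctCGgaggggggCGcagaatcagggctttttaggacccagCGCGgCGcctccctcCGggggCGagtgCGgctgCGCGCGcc
Kcnd2: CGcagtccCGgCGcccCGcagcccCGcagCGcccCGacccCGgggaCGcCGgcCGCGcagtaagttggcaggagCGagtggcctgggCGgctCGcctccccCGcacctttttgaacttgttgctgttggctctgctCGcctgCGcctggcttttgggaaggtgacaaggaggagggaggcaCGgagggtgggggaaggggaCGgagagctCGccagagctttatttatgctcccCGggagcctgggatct
Kcna10: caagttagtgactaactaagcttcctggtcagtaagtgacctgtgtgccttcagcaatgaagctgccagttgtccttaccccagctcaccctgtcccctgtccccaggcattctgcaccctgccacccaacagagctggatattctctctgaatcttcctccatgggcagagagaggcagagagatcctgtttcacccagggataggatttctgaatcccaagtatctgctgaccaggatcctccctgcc

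No member changed at an adjusted p under 0.05 (limma, Benjamini-Hochberg over 22640 probes above the median) in any of the 3 comparisons of ages. No probe of any gene did either: percent called was 0% from 4 to 15 weeks, 0% from 15 to 45 weeks and 0% from 4 to 45 weeks. The values below are therefore differences between pools that did not pass the test, and the comparisons share pools. In bulk tissue fewer cells of a type and less RNA per cell cannot be told apart.

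From 4 to 15 weeks 19 of the 49 members were higher and 30 lower, with a median log2 difference of -0.04, against -0.01 over the brightest probe of each of 12595 genes above the median. At an unadjusted p under 0.05 stood 0 members in the higher direction (background 0.603%) and 1 in the lower (2.04%, background 0.905%). Both 15-week pools lay above both 4-week pools in 2 members (4.08%, background 11.4%) and below them in 5 (10.2%, background 14.7%).

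The 1 member was Kcnk6, with a log2 difference of -0.32 (SE 0.12, limma adjusted p = 1). The airway list also read lower at 15 weeks, in 6 of 7 tested genes with a median of -0.84, and its part in the Kcnk6 value was not tested. The next smallest p among members belonged to Kcnc4, at -0.28 (SE 0.16). Kcnc4, whose channel is known from skeletal muscle as well as neurons, stood at 9.58 and 9.86 at 4 weeks, 9.44 and 9.44 at 15 weeks, and 9.46 and 9.82 at 45 weeks. Its high pools, 4b and 45b, were the pools with high Xist and the highest muscle list means (10.38 and 10.64), and the part of these in the difference was not tested beyond the fit with Xist as a covariate, where it was -0.11. Kcnj16 read 7.14 and 7.54 in the youngest pools and 7.73 and 7.44 in the next, which overlap, a difference of 0.25 (SE 0.17) that was 0.05 without pool 4a. The remaining members of this comparison with the smallest p were Kcnrg (-0.31), Kcnab1 (-0.21) and Kcnmb1 (-0.17) on the lower side and Kcne2 (0.24), Kcnh1 (0.16), Kcne1l (0.15) and Kcnf1 (0.11) on the higher. Kcnk13, at -0.10, was among the 7 whose pools did not overlap.

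From 15 to 45 weeks the members were split evenly, 24 higher and 25 lower, with a median of -0.03 against -0.01 for all genes. An unadjusted p under 0.05 was reached by 0 members in the higher direction (background 4.31%) and by 2 in the lower (4.08%, background 4.81%). Both older pools were above both younger ones in 8 members (16.3%, background 20.2%) and below them in 11 (22.4%, background 21.6%). These shares lie near or below the background.

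The 2 lower members were Kcnc1, at -0.52 (SE 0.17, limma adjusted p = 0.606), and Kcnma1, at -0.46 (SE 0.18, adjusted p = 0.606). Kcna6 at -0.44 and Kcnab2 at -0.38 came next, beside Kcnk18 (TRESK, a sensory neuron channel) at -0.34, which passed the level filter only through its younger pools. Without pool 15a Kcnma1 was at -0.28 and Kcna6 at -0.17, and without pool 15b at -0.64 and -0.71. On the higher side stood Kcnmb4 (0.26), Kcnn2 (0.23), Kcnj8 (0.21), Kcnn1 (0.20) and Kcns1 (0.19), a modifier subunit of sensory neurons, none with a limma adjusted p under 0.68. Of these Kcnn2 kept within 1.5 times its value as pools were left out. Kcnmb4 was 0.07 without pool 45a, Kcnj8 0.10 without 15a, Kcnn1 0.10 without 45b and Kcns1 0.12 without 15b. The 3 SK and IK genes were all higher, with a median of 0.20, where 48.7% of all genes were higher.

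The longest interval, 4 to 45 weeks, held the widest single differences. Of the 49 members 22 were higher and 27 lower, with a median of -0.05 against -0.02 for all genes, and the median size regardless of sign was 0.15 against 0.16. Over all 12595 genes 52.9% were lower and 47.1% higher, to be read beside the sign counts of families and lists below. An unadjusted p under 0.05 was reached by 1 member in the higher direction (2.04%, background 6.84%) and by 7 in the lower (14.3%, background 8.92%). Both 45-week pools lay above both 4-week pools in 7 members (14.3%, background 21.6%) and below them in 14 (28.6%, background 25.4%).

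**Figure D2:**
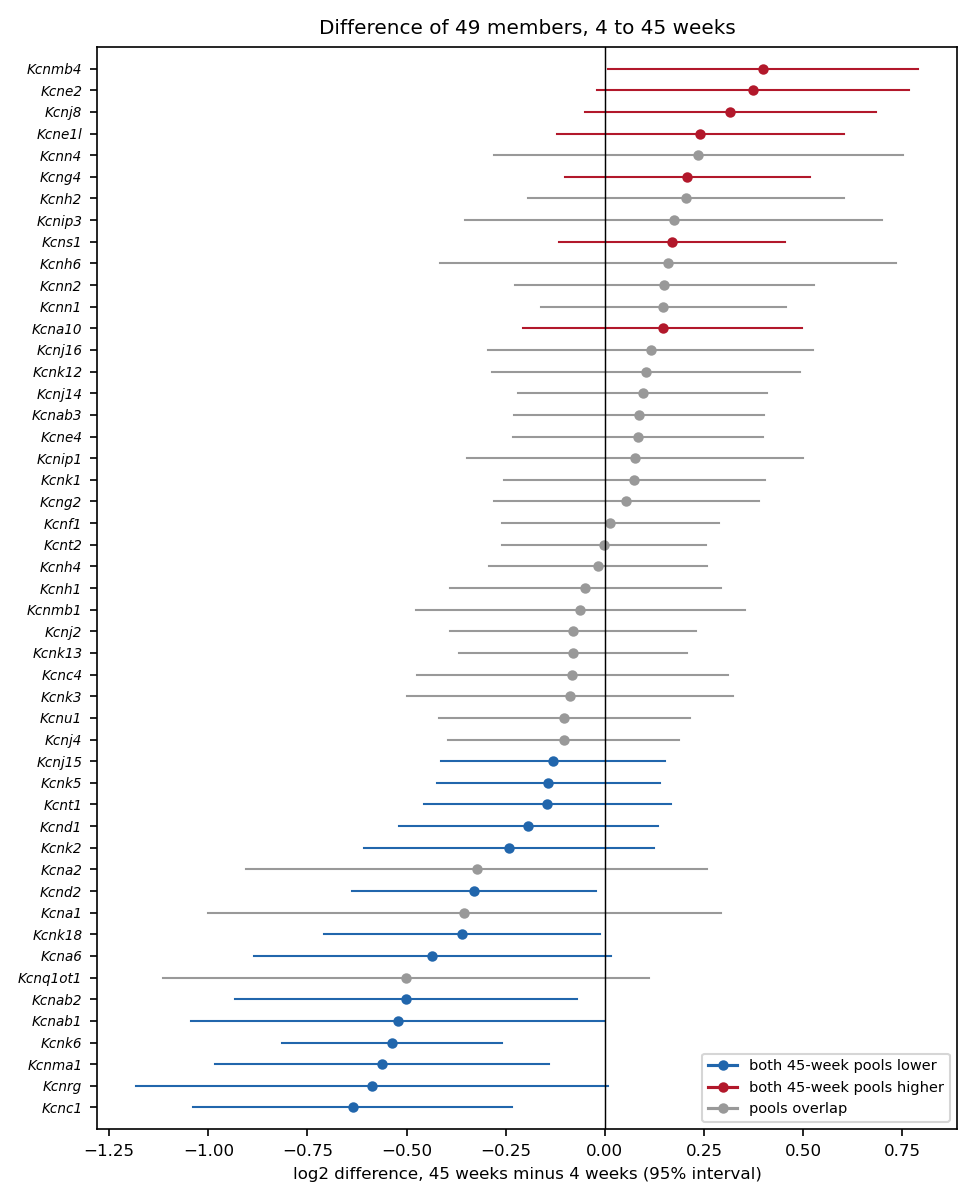
Log2 difference between 45 and 4 weeks for the 49 members above the median, with 95% intervals from limma, ordered by size. Blue and red mark members whose pools of the 2 ages do not overlap (14 lower, 7 higher) and grey those that overlap. The values run from -0.64 (Kcnc1) to 0.40 (Kcnmb4).

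The pore-forming Kv genes were lower in 7 of 8 cases, with a median of -0.33, and none passed the test. Pools a and b of Kcnc1 read 8.75 and 8.31 at 4 weeks, then 8.42 and 8.41, then 7.80 and 7.99 in the oldest mice. The 45-week pools were below all others, a difference from 4 weeks of -0.64 (SE 0.17, 95% interval -1.04 to -0.23, limma adjusted p = 0.273). A second Kcnc1 probe, at a mean of 6.11, gave 0.05, so the difference rests on 1 probe. Without pool 4a the difference was -0.42 and without pool 4b -0.86.

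Kcnd2 (Kv4.2, a fast-inactivating neuronal channel) was at 6.65 and 6.43, then 6.44 and 6.47, then 6.14 and 6.28, which separates the 45-week pools (-0.33, SE 0.13, adjusted p = 0.339, and -0.22 without pool 4a). Its second probe gave 0.16, but lay near the threshold at a mean of 5.91, with a 4-week mean of 5.79 below 5.87. The arrays of pool 15b read 6.49 and 5.71 on that probe. Kcna6 was at 8.74 and 8.71, 8.99 and 8.46, and 8.40 and 8.18, a difference of -0.44 (SE 0.19), and its second probe gave -0.32. Kcna10 was the exception among the Kv genes, where the youngest pools read 6.89 and 6.71 and the oldest 6.94 and 6.96, a difference of 0.15 (SE 0.15) that its second probe did not show (-0.12).

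Both high Kv beta genes were lower at 45 weeks. Kcnab2 was at 11.73 and 11.28 at 4 weeks, 11.50 and 11.26 at 15 weeks, and 11.10 and 10.91 at 45 weeks, a difference of -0.50 (SE 0.18, limma adjusted p = 0.313) that was -0.28 without pool 4a. Kcnab1 went from 9.04 and 8.75 through 9.0 and 8.36 to 8.32 and 8.42, a difference of -0.52 (SE 0.22, adjusted p = 0.36) with pool 15b already at the level of the oldest pools. A second Kcnab1 probe gave -0.47. The third gene, Kcnab3, differed by 0.09.

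Among two-pore channels 6 of 8 were lower, with a median of -0.12. Kcnk6 had the smallest p of all members: 8.63 and 8.65 at 4 weeks, 8.25 and 8.37 at 15 weeks, and 8.05 and 8.16 at 45 weeks. The 3 ages did not overlap and stepped downward, a difference from 4 to 45 weeks of -0.54 (SE 0.12, 95% interval -0.82 to -0.26, limma adjusted p = 0.271). Kcnk6 was the 1 member of 49 with that order, against 3.91% of all 12595 genes, so the order is not particular to the members. No member had the reverse order, whose share over all genes was not computed. Its second probe, at 7.18 and 7.20, 7.14 and 7.31, and 6.88 and 7.12, did not step between 4 and 15 weeks and gave -0.19 over the whole interval. Kcnk18, close to the threshold at 6.12 and 5.96, then 6.18 and 5.86, then 5.64 and 5.71, differed by -0.36. It passed the level filter through its younger pools, its 45-week mean of 5.68 lying below 5.87, so its value is a description, and without it 6 members are in the lower count. The highest two-pore probe, that of Kcnk1, differed by 0.07 (SE 0.14), Kcnk5 by -0.14 (SE 0.12), Kcnk2 by -0.24 and Kcnk3 (TASK-1) by -0.09.

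**Figure D3:**
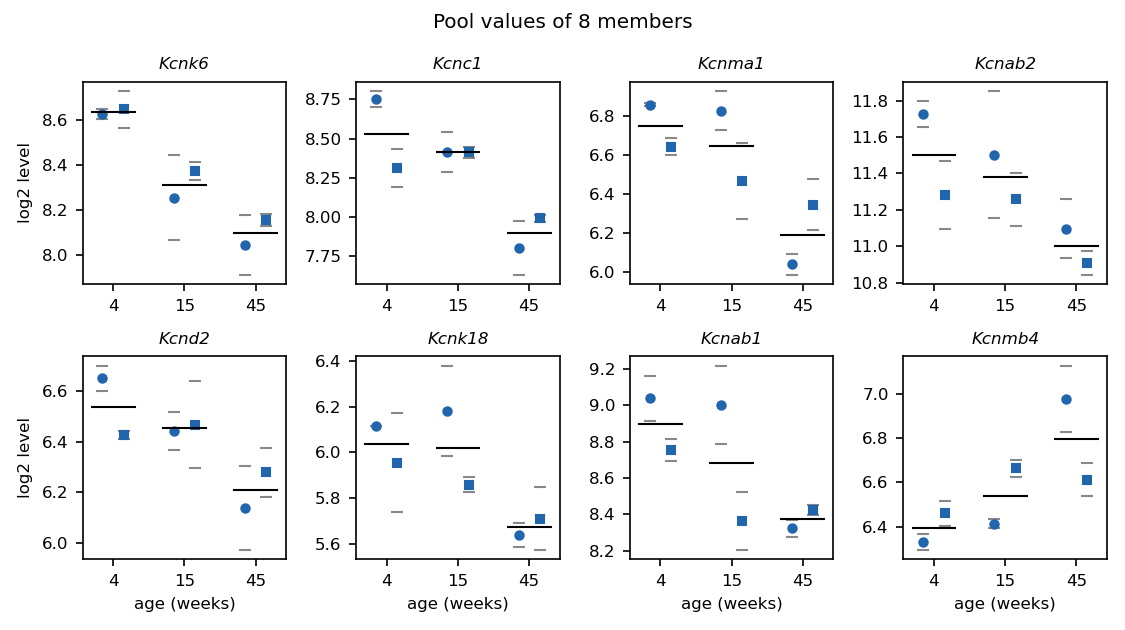
Log2 level of the 8 members with an unadjusted p under 0.05 between 4 and 45 weeks, by age. Circles are pool a, squares pool b, grey dashes the 2 arrays of a pool and black lines the mean of an age. In all 8 the 45-week pools lie apart from the 4-week pools, which choosing genes by that p favours and is no further support. Kcnk6 alone of them steps at each age without overlap. Kcnk18 passed the level filter through its younger pools.

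Calcium-gated genes went both ways. Kcnma1, the BK pore, was at 6.86 and 6.64, 6.83 and 6.47, and 6.04 and 6.34, with the 45-week pools below all others (-0.56, SE 0.18, limma adjusted p = 0.288), while its second probe gave -0.14. All 4 Slo genes were below 0, with a median of -0.12, but Kcnt2 was at -0.002 (SE 0.11). The sodium-activated channel gene Kcnt1 was at -0.14. Kcnmb4, the neuronal BK beta subunit, was instead higher: 6.33 and 6.46, 6.41 and 6.66, and 6.98 and 6.61 (0.40, SE 0.16, adjusted p = 0.354, and 0.22 without pool 45a), and its second probe gave 0.21. The 3 SK and IK genes were higher, with a median of 0.15, and overlapped between the ages. Kcnn4 was at 7.55 and 7.59, 7.52 and 7.92, and 8.09 and 7.52, so its high values were pools 15b and 45a.

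The KCNE subunits were higher at 45 weeks in 3 of 3 cases, with a median of 0.24. Kcne2 was at 6.01 and 5.80 at 4 weeks, 5.94 and 6.35 at 15 weeks, and 6.32 and 6.24 at 45 weeks (0.37, SE 0.17, limma adjusted p = 0.38). Kcne1l differed by 0.24, and Kcne4 by 0.08. The 4 modifier Kv genes were also all above 0, from Kcnf1 at 0.01 to Kcng4 at 0.21, with a median of 0.11. Inward rectifiers were split 3 and 3, with Kcnj2 (Kir2.1) at -0.08 and Kcnj16 at 0.12. Kcnj8, at 6.54 and 6.20, 6.37 and 6.58, and 6.73 and 6.64, had the largest value among them (0.32, SE 0.15, and 0.15 without pool 4b). Kcnj2 passed the level filter through its 4-week mean (5.93, then 5.85 and 5.85), and Kcnj14 through its older means (5.86, then 5.98 and 5.96). They fall on opposite sides of this split, and their signs, counted in every comparison, are descriptions. Kcnrg, which is no channel, stood at 6.97 and 7.30, 7.18 and 6.47, and 6.40 and 6.69 (-0.59, SE 0.25), while its second probe gave -0.11.

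The largest gaps between arrays and between pools of an age exceeded the 4 to 45 week difference in most members. In 40 of the 49 members the 2 arrays of some pool lay farther apart than the ages 4 and 45 weeks, with a median largest gap of 0.41, from 0.11 (Kcnj8) to 0.85 (Kcnq1ot1). The largest gap between pools of an age was the larger one in 41 members, and the 8 others were Kcnab2, Kcnk6, Kcnc1, Kcnmb4, Kcnma1, Kcnd2, Kcns1 and Kcnk18. Both counts set the largest of several gaps, those at 15 weeks included, against a difference of averaged values, which favours the gap. The shares over all genes were not computed, so the counts are no result about these members. Where a gene had 2 probes above the median (15 members), the brighter of the other probes had the same sign as the brightest in 11 from 4 to 15 weeks, in 10 from 15 to 45 weeks and in 10 from 4 to 45 weeks.

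**Figure D4:**
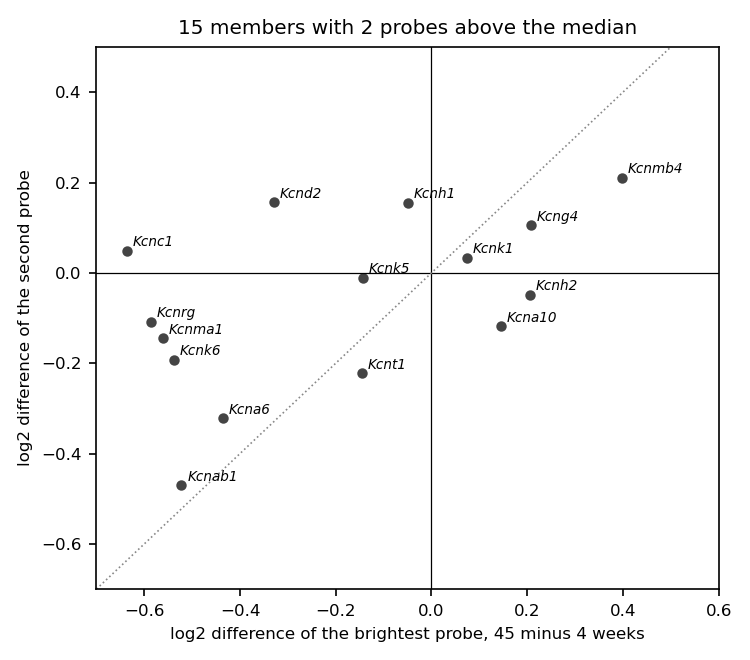
Log2 difference between 45 and 4 weeks of the brightest probe (horizontal) and of the next brightest probe (vertical) of the 15 members with 2 or more probes above the all-probe median. Points on the dotted line would have equal values. Kcnab1, Kcna6 and Kcnmb4 lie on the same side in both, while Kcnc1 (-0.64 and 0.05) and Kcnd2 (-0.33 and 0.16) do not.

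Several neuronal channels read low in pools 15b and 45a, where neuron markers were lowest, but other pools did not match. Kcna1 was at 6.67 and 6.30 at 4 weeks, 6.62 and 6.23 at 15 weeks, and 5.76 and 6.51 at 45 weeks, with pool 45a the lowest. Kcna2 had the same lowest pool, at 7.06 and 6.65, 6.99 and 6.55, and 6.27 and 6.80, and neither gene separated the ages. The mean of 14 spiral ganglion neuron markers was 8.22 and 8.14, 8.29 and 7.79, and 7.79 and 8.06 in the same pools, lowest in 15b and 45a. Prph, a neurofilament of peripheral neurons, stood at 9.55 and 9.62, 9.70 and 8.26, and 8.22 and 9.41. Nefm, Stmn2, Gap43 and Gata3 were also lowest in 15b and 45a, but the rest of the list did not share this pattern. Ntrk2 was highest in 45a (8.34), and Syt1 was lowest in the 45-week pools (8.07 and 8.33). Of the list 11 were above the all-probe median, and Nefl, Tubb3 and Snap25 were not. From 4 to 45 weeks 9 of these 11 were lower, with a median of -0.27, and 0 passed the test. In pool 4b the list stood at 8.14, while Kcna1 and Kcna2 were below their own means of 6.35 and 6.72. In pool 45b it stood at 8.06, while Kcnma1 (6.34) and Kcnab1 (8.42) were below theirs. Kcna6 (8.18) and Kcnab2 (10.91) were lowest in 45b. The part of neuron content in the values of Kcna1, Kcna2, Kcnab1 and Kcnma1 was not tested.

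Kcnmb4 and Kcnn4 had their highest pool, 45a, where the mean of a list of central glia and brain neuron markers was also highest (7.56, against 7.16 to 7.39 in the others). Their next highest pool was 15b, where that list stood at 7.34, below 45b at 7.39. An erythroid and blood list was highest in 15b and 45a (10.51 and 10.47, against 10.31 to 10.39). A bone list was also highest there (10.43 and 10.18, against 9.54 to 10.04). The pituitary list was highest in 45b (8.09) and next in 45a (7.78), against 5.60 to 5.90 in the younger pools. Its rise is confounded with the age of 45 weeks. The part of these lists in either difference was not tested.

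**Figure D5:**
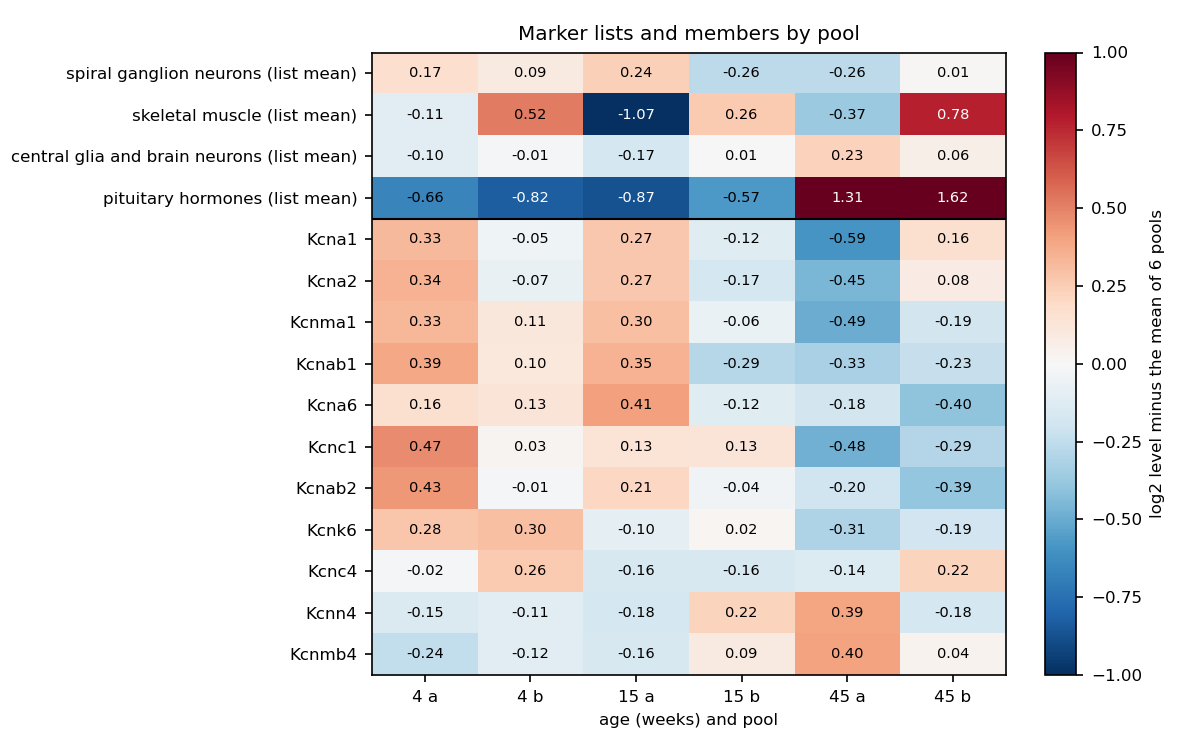
Log2 level minus the mean of the 6 pools, by pool, for the means of 4 marker lists (above the black line) and 11 members. Colours end at -1 and 1, and the number is printed in each cell. The neuron list and Kcna1, Kcna2, Kcnma1 and Kcnab1 are below their own mean in pools 15b and 45a, and the pituitary list is high in both 45-week pools.

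Genes that work with these channels were described from 2 further lists. Of 22 channel partners 18 were tested, and from 4 to 45 weeks 5 were higher and 13 lower, with a median of -0.07. None passed the test. An unadjusted p under 0.05 was reached by 0 in the higher direction and by 3 in the lower, where 6.84% and 8.92% of all genes stood, namely by Akap9, an anchor for kinases at channels (-0.63, SE 0.15), by Dpp10, an auxiliary protein of Kv4 channels (-0.40, SE 0.15), and by Dlg2, a scaffold that binds Kv1 channels (-0.37, SE 0.15). Of 18 potassium pump, cotransporter and HCN genes 10 were tested, 6 higher and 4 lower, with a median of 0.06. Those with an unadjusted p under 0.05 were 3 lower genes, against 8.92% of all genes, namely Slc12a2, the strial sodium-potassium-chloride cotransporter (-0.39, SE 0.11), Atp1b1, a sodium pump subunit (-0.38, SE 0.12), and Slc12a7, a potassium-chloride cotransporter (-0.48, SE 0.18). Slc12a2 stood at 12.69 and 12.76 at 4 weeks, 12.65 and 12.59 at 15 weeks, and 12.33 and 12.34 at 45 weeks, with the oldest pools below all others and a limma adjusted p of 0.276.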

How the data were processed

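RNA of 6 pools was measured on 12 Illumina arrays. The deposited table holds log2 values that the authors had normalized: the sorted columns of all arrays are identical, as quantile normalization leaves them, so a shift of most transcripts one way cannot be seen. The sources used here name no background correction and no software. A second table, whose 12 value columns match no sample label, was not used. Its detection p-values were thus not used either.

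Probes were named from the platform annotation, and all 86 members matched RefSeq names by gene number. The 2 arrays of a pool were averaged. Probes with a mean above 5.87, the median of probe means, were tested (22640) with limma 3.58.1 in R 4.3.3, in 1 model over 3 ages with 3 residual and 3.84 prior degrees of freedom. SE is moderated, p-values were adjusted by Benjamini-Hochberg separately per comparison, and values under 0.05 were called. The fit was tested on simulated data with changes of 1 and 2 log2 units. These are larger than any member difference, so that test does not bear on differences of the size seen here. Precision is limited by the number of pools.

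Members and lists were chosen with earlier results of these data known. Named genes are called members, the 10 of highest probe level, per comparison the 5 higher and 5 lower of smallest p and up to 5 with non-overlapping pools, and 32 listed cochlear members, of which 28 were analysed. Other genes were named after their values were seen. Replicate letters did not pair the pools: deviations of same-lettered pools correlated at -0.11, 0.18 and -0.39. Alternatives are other filters, blocks, arrays, probes, scalings and each pool left out.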

Additional observations from a re-analysis of the deposited data

How the results depend on the processing

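No Kcn probe was called under any of the alternatives run, which were other filters, arrays blocked by pool or taken alone, the 2 ages compared alone, trended robust variances, array weights, cyclic loess, Xist as a covariate and each pool left out. Over all probes, calls went from 0 to 2, 6 and 183 (4 to 15, 15 to 45 and 4 to 45 weeks) when the 12 arrays entered with pool as random block, to 1 and 1 with technical array 2 alone and to 2 and 2 with trended robust variances (15 to 45 and 4 to 45 weeks), and to 1 with the ages 4 and 45 weeks alone. Leaving out 1 pool gave 0 calls from 4 to 15 weeks and 0 to 12 in each of the other comparisons, with 12 without pool 45b.

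The members' median difference is set here beside 0.045, its spread between pools. From 4 to 15 weeks it ran from -0.0762 to 0.0287 as pools were left out, above 0 without pool 4a or 15b (0.0183). From 15 to 45 weeks it ran from -0.062 to 0.0074, and was -0.1293 with the filter at the 75th percentile and -0.0901 on technical array 1. From 4 to 45 weeks it ran from -0.0835 to -0.0196, and was -0.1429 with that filter, 0.0081 on technical array 2 and 0.0138 with the mean over a gene's probes. The count of 49 members above the median was 13 at the 75th percentile and 49 to 52 as pools were left out.

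Of the named differences 6 turned in sign, all from 4 to 15 weeks: Kcnab1 to 0.0048 on technical array 2 and 0.1049 without pool 15b, Kcnmb1 to 0.0081 without pool 4b and 0.013 with Xist as a covariate, Kcne1l to -0.0099 and Kcnrg to 0.0486 without pool 15b. With pools left out in turn, Kcnab1 ran from -0.5321 to 0.1049, Kcnmb1 from -0.3458 to 0.0081, Kcne1l from -0.0099 to 0.3174 and Kcnrg from -0.6606 to 0.0486. The causes were not tested. As pools were left out, 9 of 11, 7 of 10 and 6 of 12 named differences moved by over 1.5 times (4 to 15, 15 to 45 and 4 to 45 weeks). From 4 to 45 weeks Kcnk6 ran from -0.59 to -0.21, with limma adjusted p from 0.0644 to 0.862, and Kcnc1 from -0.86 to -0.29, with 0.0665 to 0.862, the smallest sizes being those of the mean over a gene's probes. The replicate block, with the letter as a term, called 0 probes and left the medians at -0.04, -0.0265 and -0.0493; letters share only a name. A fresh normalization of the second table and a detection filter were not run, since its columns match no sample label. A lone pool left at an age is assumed to vary like the others. Probes near the median carry little signal over background, which limits their differences.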
